A study of Mus musculus with 30 samples.

Results

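The genes described here encode the protein subunits of the cytosolic ribosome. They were taken as the protein-coding genes of the deposited count table with a mouse symbol of Rpl or Rps, a number and an optional a, x or l, together with Rplp0, Rplp1, Rplp2 and Rpsa. The rule used names only and no measured value. It matched 83 of 32361 genes, of which 3 were annotated as pseudogenes and left out, and the kinases of the Rps6k family were not taken. This left 80 genes, 49 of the large subunit and 31 of the small subunit, called the ribosomal protein genes below. Of these, 79 passed the filter on low counts and were tested among 15119 genes. Rpl3l, the skeletal muscle paralog of Rpl3, did not pass and had 0 to 5 counts in a library.

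A ribosome holds a single copy of nearly every one of these proteins, and their mRNAs are among the most abundant in growing cells. Most of these mRNAs begin with a cytosine followed by a run of pyrimidines, the terminal oligopyrimidine (TOP) motif, through which the kinase mTORC1 and the RNA-binding protein LARP1 control their translation and stability. Translation factors such as Eef1a1, Eef2 and Pabpc1 carry the same motif. Macrophages that sense bacterial products make large amounts of new mRNA and secreted protein, so that the mRNA for the translation machinery is a smaller or larger share of the whole depending on what else is made.

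The study used bone marrow-derived macrophages, primary cells grown from the marrow of C57BL/6J mice in medium conditioned by L929 cells as the source of M-CSF. WT cells were set beside Ticam2-/- cells (KO), which lack TRAM, the adaptor that links endocytosed TLR4 to TRIF and interferon induction. Cells of either genotype were left untreated, or were given LPS at 10 ng/mL, a ligand of TLR4, or LTA at 100 ng/mL, a lipoteichoic acid sensed through TLR2, for 2 h or 6 h. The 10 groups had 3 libraries each, from 3 WT and 3 KO animals, 30 libraries in all. The deletion is germline, so every cell type in the culture lacked TRAM, and differentiation itself took place without it. The untreated cells have a single time point, not stated separately for 2 h and 6 h. RNA sequencing of bulk cultures gives relative amounts, in which fewer cells of a type and less RNA per cell cannot be told apart.

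Ticam2 itself was at 10.3 to 21.01 CPM (counts per 1000000 counts of the library) in the 15 WT libraries and at 0.408 to 5.27 CPM in the 15 KO libraries, with no overlap. The 18 libraries of untreated cells and of 6 h had 10641070 to 13521660 counts, and the 12 libraries of 2 h had 1334784 to 2658329. The 2 sets also differed in transcripts listed as markers of other cells. Summed erythroid markers stood at 5600 to 7733 CPM in the untreated and 6 h libraries. At 2 h they stood at 0 in 10 of the 12 libraries and at 0.456 CPM or less in the others. Summed fibroblast and stromal markers stood at 8.12 to 14.6 CPM in the first set and at 199.2 to 361.1 CPM at 2 h. In that list Fn1 reached 232.3 CPM and Col1a1 82.3 CPM, and Col1a2, Col3a1 and Sparc reached 16.1 to 22.5 CPM. Dcn, Lum and Pdgfra stayed at 0.890 CPM or less in every library. All 10 macrophage markers listed were detected in all 30 libraries. A difference between 2 h and untreated cells and one between these sets of libraries cannot be told apart. Comparisons at 6 h, and between genotypes or ligands at 1 time, stay within a set.

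A pyrimidine run of the TOP kind was found at some of the annotated starts of these genes. RefSeq promoters (GRCm38.p6) were matched for 60 of the 80 genes, with 72 start sites. A cytosine followed by 4 pyrimidines (each base C or T, read on the gene's strand) stood exactly at the annotated start of 13 of these 72, or 18.1%, against 2.51% of all 32851 promoters, and within 10 bases of the start in 55.6% against 30.7%. The windows below give 30 bases before the start and 20 from it. Capitals mark the run from the C, followed by 4 pyrimidines, that lies nearest the start. Pyrimidines directly before that C stay in small letters. Shown are the genes on which the results turn, with Rps6, Rps27 and Rpl15 as examples in which such a C stands at the start.
Rps6 at chr4:86857348-86857397, minus strand: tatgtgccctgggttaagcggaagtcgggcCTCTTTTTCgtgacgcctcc
Rps27 at chr3:90213629-90213678, minus strand: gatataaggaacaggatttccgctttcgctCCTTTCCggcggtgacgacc
Rpl15 at chr14:18270967-18271016, minus strand: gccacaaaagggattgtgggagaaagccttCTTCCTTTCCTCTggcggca
Rps24 at chr14:24490648-24490697, plus strand: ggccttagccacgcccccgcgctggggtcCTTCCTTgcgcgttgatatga
Rpl13a at chr7:45128726-45128775, minus strand: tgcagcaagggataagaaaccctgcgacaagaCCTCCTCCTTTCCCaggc
Rps2 at chr17:24720033-24720082, plus strand: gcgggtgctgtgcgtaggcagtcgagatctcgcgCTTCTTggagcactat
Rps27l at chr9:66946056-66946105, plus strand: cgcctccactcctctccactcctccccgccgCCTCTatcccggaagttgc
Rpl24 at chr16:55966245-55966294, plus strand: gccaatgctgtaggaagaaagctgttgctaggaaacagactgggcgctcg
Rpsa at chr9:120127736-120127785, plus strand: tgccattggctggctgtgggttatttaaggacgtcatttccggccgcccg
In Rps24 the capitals begin 1 base before the annotated start, and in Rps27l, Rpl13a and Rps2 they begin 1, 2 and 4 bases after it. Pyrimidines directly before the capitals carry the run further upstream in Rps24, as in Rps6, Rps27 and Rpl15. Rps27l holds another run before its start that is not in capitals. The windows of Rpl24 and Rpsa hold no run of this kind that begins within 10 bases of the annotated start, which says only that the letters are not there.

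Within the 300 bases of each promoter, 250 before the start and 50 after it, 3 other motifs were searched on both strands. CGGAAG, the core bound by ETS factors, was found in 61.1% of the promoters of ribosomal protein genes and in 16.9% of all promoters. GGGCGG, the GC box, was found in 58.3% and 35.7%, and AAGATGG, the core bound by YY1, in 15.3% and 6.34%. TATAAA was found in 8.33% and 13.6%. By place of the pyrimidine run, the median log2 change in WT cells after LPS for 6 h was 0.18 for the 13 genes with the run at a start, 0.14 for the other 24 tested genes with it within 10 bases of a start and 0.21 for the 22 without it, all on the scale of trimmed-mean (TMM) normalization.

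Levels differed widely between the genes. CPM per kilobase of exon was highest on average over the 30 libraries for Rplp1, a stalk protein that recruits elongation factors, at 6991, followed by Rps29 at 2502, Rps21 at 2025, Rpl32 at 1928 and Rpl38 at 1570, and the median gene stood at 447. The annotated exon bases used ran from 383 for Rpl36 to 6270 for Rps15a, with 499 for Rplp1. This order therefore also depends on how much exon is annotated for each gene, and the length of the expressed mRNA was not measured. The 10 genes with most counts were Rplp1, Rps14, Rps12, Rplp2, Rps24, Rps15a, Rpl32, Rps29, Rps21 and Rpl23. Together they held 27.1 to 28.0% of the summed counts of the 80 genes, called the pool below, in every library. At the low end stood the tissue paralogs: Rpl3l, Rpl10l (a testis paralog of Rpl10) and Rpl39l (a paralog of Rpl39 best known in testis) averaged 0.193, 0.381 and 2.17 CPM. The lowest of the other genes were Rpl29 at 147 CPM, Rps6 at 202 CPM and Rpl15 at 273 CPM, which are levels per gene and not per length.

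The pool was a smaller share of all counts in WT cells at 6 h. In WT untreated cells it took 7.81%, 7.62% and 7.55% of the counts of the 3 libraries, a mean of 7.66% ± 0.135 (SD, n = 3). After LPS for 6 h it took 5.30%, 5.36% and 5.74%, a mean of 5.47% ± 0.241 (SD, n = 3), and after LTA for 6 h 5.91%, 5.71% and 5.82%, a mean of 5.82% ± 0.102 (SD, n = 3). All 6 treated WT libraries lay below all 3 untreated ones. The log2 differences of the shares were -0.49 for LPS and -0.40 for LTA. Each had an exact permutation p of 0.1, the smallest that 3 against 3 allows (two-sided, 0.14 adjusted over the 21 comparisons). The permutation did not pair libraries by animal.

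In KO cells the share moved less. It was 8.02%, 8.09% and 7.94% in untreated KO cells, a mean of 8.02% ± 0.0763 (SD, n = 3). After LPS for 6 h it was 7.22%, 7.67% and 7.57% and after LTA 7.23%, 7.15% and 7.28%, again with no overlap with untreated cells. The log2 differences were -0.10 and -0.15. The share after LPS for 6 h was thus higher in every KO library than in every WT library, by 0.45 on the log2 scale, and by 0.31 after LTA, while the untreated genotypes differed by 0.07. Each of these comparisons had the smallest exact permutation p possible, 0.1.

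**Figure D1:**
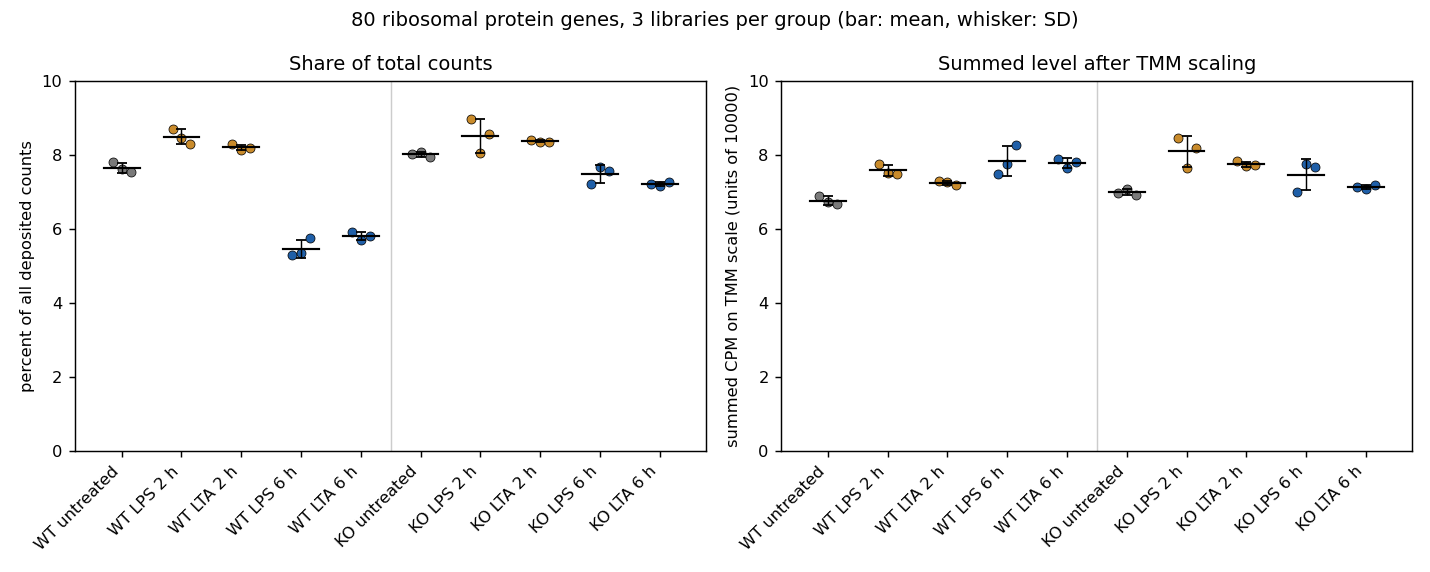
Left, the percent of all deposited counts in the 80 ribosomal protein genes for each of the 10 groups; right, their summed CPM after TMM scaling, in units of 10000 (points: libraries, n = 3; bars: means; whiskers: SD; grey untreated, orange 2 h, blue 6 h). At 6 h the WT groups are the lowest of all on the left, at 5.47% and 5.82%, and lie above their untreated group on the right.

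Which way a ribosomal protein gene moved at 6 h depended on what it was measured against. Per total count, the median gene of all those tested lay at -0.66 (log2) in WT cells after LPS for 6 h and at -0.58 after LTA, at -0.19 and -0.18 in KO cells, and at 0.54 and 0.44 for KO against WT after LPS and LTA. TMM scaling, which assumes that most genes do not change, brought the 4 response medians to between 0.00 and 0.03. The TMM factors themselves averaged 0.699 in WT LPS and 0.748 in WT LTA libraries at 6 h and 1.00 or more in the other groups. The summed macrophage markers moved with them, at 29719 to 31232 CPM in WT untreated libraries, 19909 to 21395 after LPS and 24438 to 24646 after LTA. Most of this sum was Lyz2, at 11712 to 30460 CPM over all libraries. Cd14 ran from 1085 to 6666 CPM, and no other listed macrophage marker passed 1282 CPM, so the sum does not show the markers as a group. The part of the factors and of these markers in the result was not tested.

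In WT cells after LPS for 6 h, 63 of 79 ribosomal protein genes were called higher and 1 lower at an adjusted p of 0.05 (edgeR's quasi-likelihood test, Benjamini-Hochberg over all genes) on the TMM scale, where 36.6% of all tested genes were called higher and 36.1% lower, but 1 higher and 77 lower per total count, where the figures for all genes were 16.2% and 63.7%. Their median was 0.19 on the TMM scale and -0.50 per total count, 0.16 and 0.15 above the median of all genes. After LTA for 6 h, with the same untreated libraries, 66 were called higher and 1 lower on the TMM scale (35.4% and 35.9% of all genes) and 1 higher and 75 lower per total count (15.7% and 62.3%), with medians of 0.19 and -0.41. So the genes of the pool lost less of the total than the middle gene did. The large subunit had 39 of 48 genes called higher after LPS (median 0.22) and the small subunit 24 of 31 (median 0.16) on the TMM scale, and after LTA 41 and 25 with the same medians, while per total count the medians after LPS were -0.48 and -0.54.

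In KO cells the median change was closer to 0 on either scale. After LPS for 6 h, 38 of 79 genes were called higher and 1 lower on the TMM scale (25.7% and 26.6% of all genes) and 4 higher and 40 lower per total count (15.6% and 41.9%), with medians of 0.10 and -0.10. The count of 38 rested on single libraries, and it was 24 without the library of animal 2, 25 without that of animal 3 and 57 without that of animal 1. After LTA for 6 h, 16 were called higher and 2 lower on the TMM scale (25.7% and 26.5% of all genes) and 2 higher and 60 lower per total count (16.4% and 41.1%), with medians of 0.02 and -0.16.

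**Figure D2:**
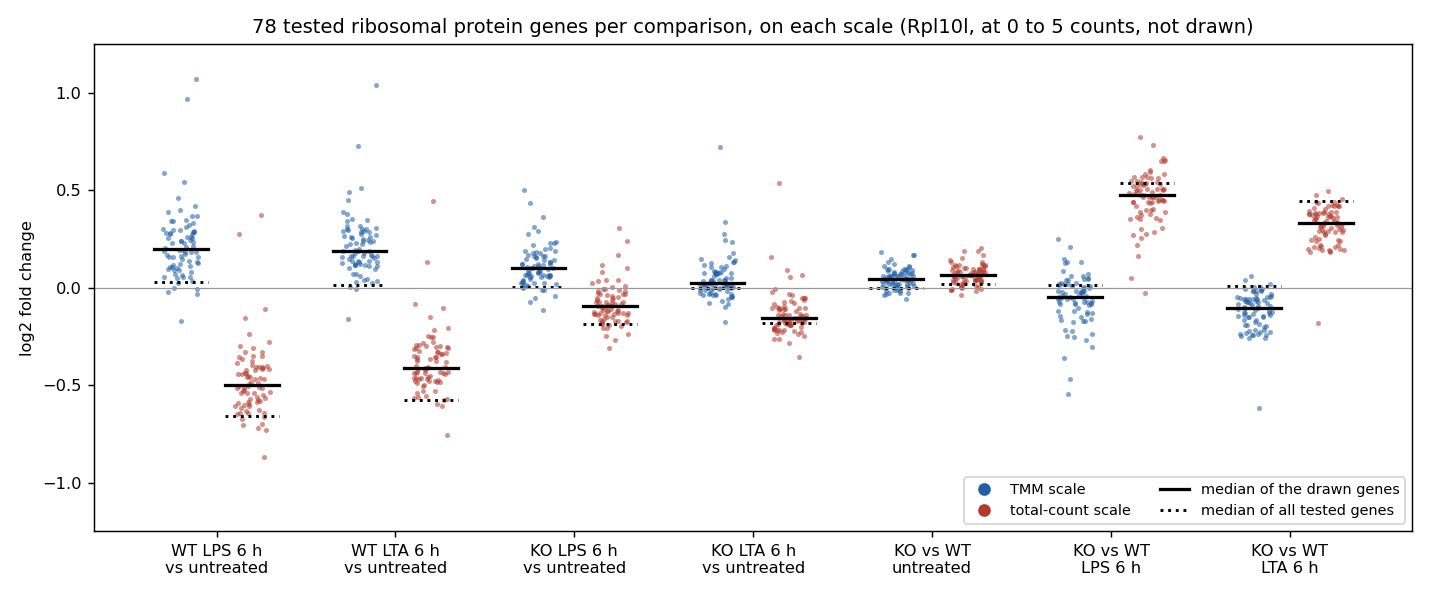
Log2 fold changes of 78 tested ribosomal protein genes (points) in each 6 h comparison, on the TMM scale and per total count (Rpl10l, at 0 to 5 counts, is not drawn). The WT responses lie mostly above 0 on the TMM scale and mostly below 0 per total count, with medians of 0.19 and -0.50 for LPS, and the differences of KO from WT turn the other way.

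The response of the genotypes was compared directly with the interaction term. After LPS for 6 h, 28 genes had a lower response in KO cells and 1 a higher one on the TMM scale (23.5% and 27.0% of all genes), and 1 a lower and 75 a higher one per total count (10.9% and 55.9%). After LTA, 50 had a lower response on the TMM scale (20.1% of all genes; edgeR called 0 higher, DESeq2 0) and 73 a higher one per total count (52.7%), where 1 was lower (8.35%). The list medians were -0.10 and -0.17 on the TMM scale, and lay at -0.12 and -0.20 from the median of all genes on either scale. The count of 28 ran from 13 without the KO LPS library of animal 1 to 49 without the WT LPS library of animal 1. It was also 43 without the WT LPS library of animal 2, 18 without the WT untreated library of animal 2 or the KO untreated library of animal 2, and 17 without the WT untreated library of animal 3. DESeq2 called 51 in place of 28, and without the filter on low counts edgeR called 11 and 23 in place of 28 and 50. The shares of all genes called under these settings are not given here, so these counts are not set against them.

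KO against WT at 6 h gave the same split between scales. After LPS, 22 genes were lower in KO cells and 6 higher on the TMM scale (30.6% and 32.7% of all genes), and 76 were higher per total count (61.3%). After LTA, 41 were lower on the TMM scale (28.0% of all genes) and 76 higher and 1 lower per total count (58.9% and 12.1%). The medians were -0.05 and -0.11 on the TMM scale and 0.48 and 0.33 per total count. DESeq2 called 43 and 67 lower in place of 22 and 41 (32.8% and 30.6% of all genes), and 2 and 0 higher (27.0% and 24.6%). The fit without the filter on low counts called 13 and 23 lower (14.2% and 12.2% of all genes), and 12 and 1 higher (16.5% and 15.2%). The 22 became 46 without the WT LPS library of animal 1 and 35 without that of animal 2, and the 41 became 64 without the WT LTA library of animal 2.

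Ratios within a library do not depend on either scaling. The ratio of the pool to the summed counts of 78 mitochondrial ribosomal protein genes, nuclear genes whose products build the ribosome of the mitochondrion, was 4.23 ± 0.0218 (log2, SD, n = 3) in untreated WT cells, 4.55 after LPS and 4.55 after LTA for 6 h, a log2 rise of the mean by 0.32 in either case. In KO cells it was 4.28 untreated, 4.38 after LPS and 4.36 after LTA. No treated library overlapped the untreated libraries of its genotype, and KO minus WT was -0.16 and -0.19 after LPS and LTA for 6 h, with exact permutation p of 0.1 in each case (0.124 adjusted over the 21 comparisons), and -0.29 and -0.31 with genes weighted equally. Against 18 translation factors whose mRNAs carry the TOP motif, the pool moved by -0.04, -0.04, -0.02 and -0.02 in the same 4 responses, and the WT LPS and KO LPS values overlapped with untreated cells (exact permutation p = 0.2 and 0.4). With genes weighted equally the WT values against translation factors had the other sign, 0.06 and 0.02. The log2 ratio of small to large subunit genes moved by -0.02, -0.04, -0.02 and -0.01.

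**Figure D3:**
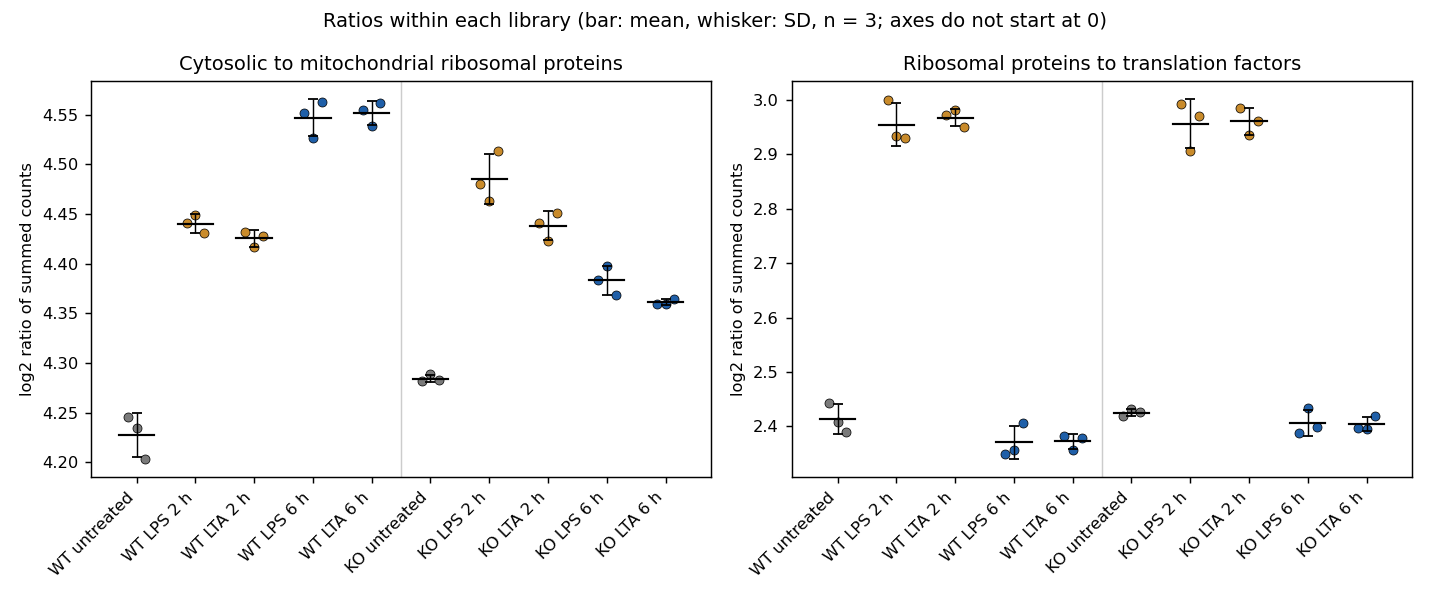
Log2 ratio of the summed counts of the 80 ribosomal protein genes to those of 78 mitochondrial ribosomal protein genes (left) and of 18 TOP translation factors (right) in each library (bars: means; whiskers: SD, n = 3; grey untreated, orange 2 h, blue 6 h; axes do not start at 0). On the left the 6 WT libraries of 6 h stand above the untreated ones, at means of 4.55 against 4.23; on the right the untreated and 6 h groups lie close together and all 2 h groups above them.

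At 6 h most genes stayed within 0.2 (log2) of the pool, though part of them were called apart from it. Relative to the pool, 41 of 79 genes moved by less than 0.1 (log2) in WT cells after LPS for 6 h and 67 by less than 0.2, and in KO cells 60 and 73. The spread of a gene's share of the pool between the 3 libraries of a group, as a median coefficient of variation over 77 genes, was 1.249 to 1.72% in the untreated and 6 h groups. With that precision, 21 genes were called higher and 25 lower than the pool in WT cells after LPS for 6 h (27.7% and 43.7% of all genes on this scale), 20 and 19 after LTA (25.8% and 44.1%), 16 and 10 in KO cells after LPS (19.0% and 31.9%), and 15 and 7 after LTA (22.5% and 27.2%).

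Rpl24, a large-subunit protein at the face that meets the small subunit, departed most from the pool among the genes called in WT cells at 6 h. Its TMM level was 227, 222.8 and 225.5 CPM in untreated WT cells, 459.2, 456.4 and 500.3 CPM after LPS for 6 h and 477.6, 454.8 and 458.4 CPM after LTA. Every treated library was far above every untreated one. In KO cells it was 240.7, 243.0 and 233.8 CPM untreated, 298.1, 335.9 and 334.7 CPM after LPS and 302.1, 301.2 and 304.1 CPM after LTA, above the untreated libraries yet below every treated WT library. The gene lies at chr16:55966275-55971435 on the plus strand (GRCm38) and overlaps Gm28037, a processed transcript on the same strand, so that reads of these overlapping genes are uncertain. Other genes named below also overlap annotated genes on the same strand. Rpl13a overlaps the protein-coding Gm45713, and Rpsa, Rps2 and Rplp2 overlap genes of small nucleolar RNAs.

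The log2 change of Rpl24 in WT cells was 1.07 ± 0.0416 (SE) after LPS (edgeR adjusted p = 5.28e-30) and 1.04 ± 0.0415 after LTA (1.83e-29), and it stayed positive per total count, at 0.37 and 0.44. In KO cells it was 0.43 ± 0.0412 (2.14e-13) and 0.34 ± 0.0415 (5.28e-10). The response differed between genotypes by -0.63 ± 0.0584 for LPS (edgeR adjusted p = 6.58e-14) and by -0.70 ± 0.0585 for LTA (2.83e-15). As a share of the pool, Rpl24 took 0.329 to 0.338% in untreated WT libraries and 0.586 to 0.614% in the 6 treated WT libraries of 6 h, against 0.338 to 0.345% and 0.423 to 0.436% in KO libraries. KO minus WT after LPS for 6 h was -0.55 on the TMM scale and -0.48 within the pool, while the value per total count, -0.03, was not called.

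Rpl29, a small basic protein of the large subunit also known as a heparin-binding protein, was the next most raised within the pool among standard genes in WT cells. It measured 153.7, 151.5 and 143.0 CPM on the TMM scale in untreated WT cells, 205.2, 227.1 and 240.7 CPM after LPS for 6 h and 215.8, 199.0 and 224.8 CPM after LTA. The treated libraries were all higher on this scale. The log2 change was 0.59 ± 0.0485 after LPS (edgeR adjusted p = 5.08e-16) and 0.51 ± 0.0485 after LTA (6.61e-14), and 0.37 and 0.31 within the pool, but -0.11 and -0.09 per total count. KO cells had 162.6, 171.9 and 168.8 CPM untreated and 200.4, 226.2 and 220.4 CPM after LPS, with changes of 0.36 after LPS and 0.27 after LTA, and 0.17 and 0.09 per total count. Rpl39l, the paralog of Rpl39, changed by 0.97 ± 0.229 (edgeR adjusted p = 0.000173) after LPS and by 0.73 ± 0.234 (0.00495) after LTA in WT cells, from 1 to 37 counts a library, and per total count the values of 0.28 and 0.13 were not called.

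Rps27l went the other way from most of the pool. It is a paralog of Rps27 and a known target gene of p53. Its TMM level was 640, 651.2 and 659.5 CPM in untreated WT cells, 542.1, 576.2 and 612.0 CPM after LPS for 6 h and 595.2, 563.3 and 589.5 CPM after LTA, with every treated library below every untreated one. The log2 change was -0.17 ± 0.0477 after LPS (edgeR adjusted p = 0.00116) and -0.16 ± 0.0476 after LTA (0.00276), larger per total count (-0.87 and -0.76) and within the pool (-0.39 and -0.36). With DESeq2 the calls in WT cells were lost, at -0.09 and -0.08. In KO cells it was 649, 654.1 and 628.9 CPM untreated, 538.2, 625.7 and 620.3 CPM after LPS and 590.1, 558.1 and 563.9 CPM after LTA, and the changes were -0.11 (edgeR adjusted p = 0.0376) and -0.17 (0.00156). The KO LPS call was lost with DESeq2 (adjusted p = 0.0898) and with edgeR on the compared groups alone (0.0981). The call was lost without the library of animal 1 in WT LPS (-0.09), of animal 2 in WT LTA (-0.09), and in KO LPS without the LPS library of animal 1 (-0.05) or the untreated library of animal 1 (-0.11) or 2 (-0.10). Rps27 itself rose by 0.24 after LPS and by 0.20 after LTA in WT cells on the TMM scale and was at -0.01 and 0.02 in KO cells, and all 4 values were below 0 per total count.

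**Figure D4:**
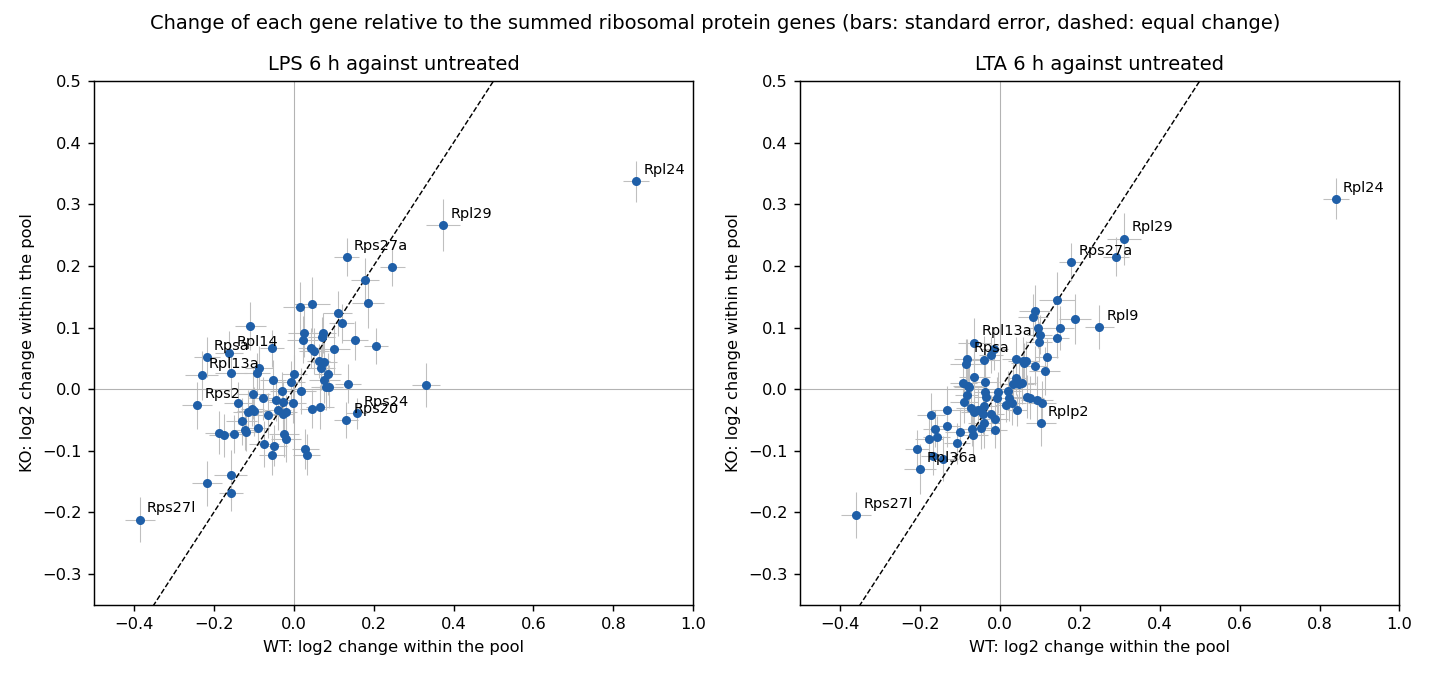
Log2 change of each tested ribosomal protein gene relative to the summed pool in WT cells (x axis) and KO cells (y axis) after LPS (left) or LTA (right) for 6 h, with standard errors; the dashed line marks equal change, and Rpl10l and Rpl39l are not drawn for their low counts. Rpl24 stands far to the right at 0.86 in WT and 0.34 in KO after LPS, and Rps27l at the lower left at -0.39 and -0.21.

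Relative to the pool, 22 genes were called higher and 16 lower in KO than in WT cells after LPS for 6 h. The figures for all genes on this scale were 35.6% and 26.5%. Among small-subunit genes, Rps24 and Rpsa differed in opposite directions. Rps24, a gene mutated in Diamond-Blackfan anaemia, measured 1657, 1628 and 1596 CPM on the TMM scale in untreated WT cells and 2002, 2084 and 2220.4 CPM after LPS for 6 h, against 1647, 1642 and 1620.0 CPM and 1594, 1739 and 1771 CPM in KO cells. The KO libraries after LPS all lay below the WT ones on this scale. Rps24 had 2.676 to 2.685% of the pool in WT libraries after LPS and 2.24 to 2.31% in KO libraries, and KO minus WT was -0.30 ± 0.0397 (edgeR adjusted p = 1.71e-09) on the TMM scale, -0.24 within the pool and 0.22 per total count. Its response differed between genotypes by -0.31 ± 0.0561 on the TMM scale and by -0.20 within the pool, with a value per total count of 0.19.

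Rpsa, a small-subunit protein also known as the laminin receptor precursor, took the opposite course. It made up 1.02% of the pool in each untreated WT library, 0.872 to 0.880% after LPS for 6 h and 0.955 to 0.968% after LTA. In KO libraries it made up 1.04 to 1.08% untreated and 1.07 to 1.12% after LPS, so that all WT libraries treated with LPS lay below all others of 6 h. In WT cells the change after LPS was -0.01 on the TMM scale (not called), -0.22 within the pool and -0.70 per total count, while in KO cells it was 0.15 on the TMM scale (edgeR adjusted p = 0.000737), 0.05 within the pool and -0.05 per total count. KO minus WT after LPS was 0.25 ± 0.0378 (6.18e-08), 0.32 within the pool and 0.77 per total count, and the responses differed by 0.15 ± 0.0532 (0.0134). Rpl13a, also a part of the GAIT complex that silences inflammatory mRNAs in myeloid cells, and Rpl14 were likewise higher in KO cells after LPS, by 0.21 and 0.15 on the TMM scale and by 0.73 and 0.67 per total count. Without the WT LPS library of animal 1 or 2, the differing response of Rpsa was 0.08 and 0.09 and the difference of Rpl14 0.07 in each case, and neither was called. Nor were they with DESeq2, at 0.07 for each (adjusted p = 0.241 for Rpsa and 0.235 for Rpl14).

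Rps24, Rpl13a and Rpl14 were also among the genes that set LPS apart from LTA in WT cells. At 6 h, 5 genes were called higher with LPS and 4 lower on the TMM scale (17.9% and 14.0% of all genes), and 1 higher and 35 lower per total count (14.1% and 22.5%). Rps20 at 0.15 ± 0.0372 (edgeR adjusted p = 0.000766) and Rps24 at 0.13 were among those called higher, and both were also above 0 per total count. Rps20, a protein of the head of the small subunit, measured 1063, 1100 and 1152 CPM after LPS and 1020, 976.5 and 986.4 CPM after LTA on the TMM scale, without overlap. Rps2, at the mRNA entry channel, at -0.17 ± 0.0404 (0.000639), Rpl13a at -0.16 and Rpl14 at -0.14 were lowest, and lower still per total count. Rpl14 was not called without the WT LPS library of animal 1 or 2 (-0.12 in each case) or the WT LTA library of animal 3 (-0.13), nor Rps24 without the WT LPS library of animal 3 (0.07) or the WT LTA library of animal 2 or 3 (0.10 and 0.12). The 5 calls became 2 without the WT LPS library of animal 3 or the WT LTA library of animal 2 or 3. In KO cells at 6 h, edgeR called 0 genes in either direction (1.34% and 1.32% of all genes), 21 had an unadjusted p under 0.05, DESeq2 called 1 higher, and so did edgeR with the animal as a block. Without the KO LPS library of animal 1, in which the share of the pool was the lowest of its group at 7.22%, 28 were called higher with LPS.

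**Figure D5:**
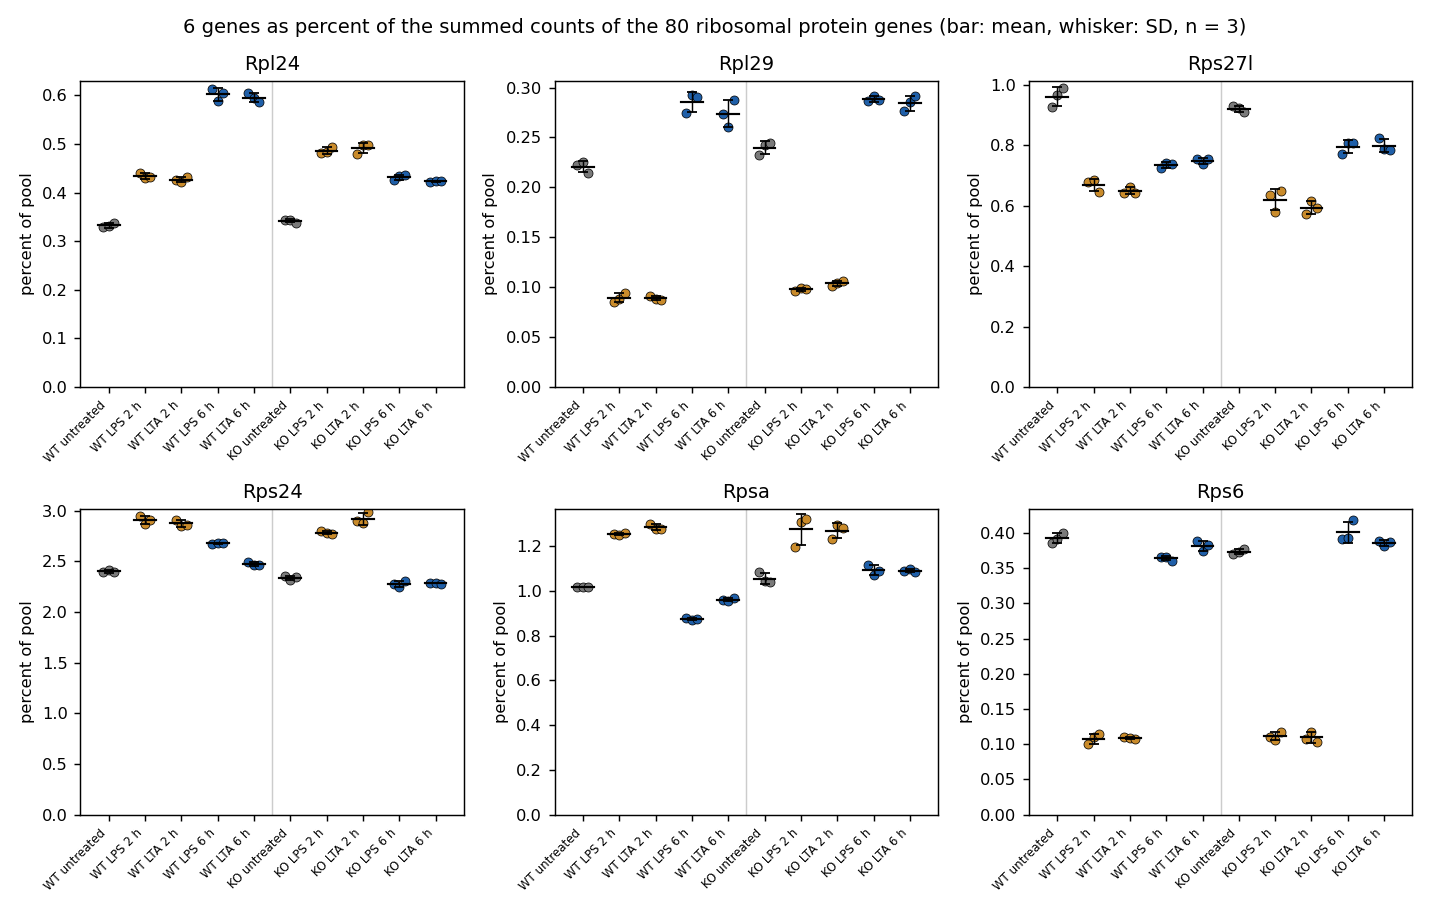
6 ribosomal protein genes as percent of the summed counts of all 80, in each library of the 10 groups (points: libraries; bars: means; whiskers: SD, n = 3; grey untreated, orange 2 h, blue 6 h). Rpl24 reaches 0.586 to 0.614% in WT libraries of 6 h against 0.423 to 0.436% in KO libraries, and Rpsa is at 0.872 to 0.880% in the WT libraries given LPS for 6 h.

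After LTA the largest genotype differences beyond Rpl24 were in Rps13, a small-subunit protein, Rplp2, a stalk protein, and Rpl9, a large-subunit protein near the stalk base. KO minus WT was -0.26 ± 0.0469 for Rps13 (edgeR adjusted p = 4.70e-06) and -0.26 ± 0.0539 for Rplp2 (9.30e-05) on the TMM scale and -0.13 for both within the pool, but 0.18 for both per total count. The LTA response differed by -0.33 ± 0.0761 for Rplp2 (0.000488) and by -0.32 ± 0.0642 for Rpl9 (3.89e-05) on the TMM scale, with -0.16 and -0.15 within the pool and 0.09 and 0.10 per total count. The other stalk proteins, Rplp0 and Rplp1, changed in WT cells by 0.26 and 0.21 after LTA and by 0.23 and 0.19 after LPS on the TMM scale, with all 4 values below 0 per total count.

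Untreated KO and WT cells differed in few of these genes. On the TMM scale 7 of 79 were called higher in KO cells (5.97% of all genes) and edgeR called 0 lower (7.47%; DESeq2 0), and per total count 12 were higher (6.96% of all genes). Rpl3, whose product lies at the peptidyl transferase centre, measured 389.9, 386.2 and 388.4 CPM in WT and 443.6, 439.3 and 437.7 CPM in KO libraries. The difference was 0.18 ± 0.0390 (edgeR adjusted p = 0.000482), 0.20 per total count and 0.13 within the pool. Rpl10, which joins the large subunit late in its assembly, and Rpl29 were both higher by 0.17 on the TMM scale, with edgeR adjusted p of 0.00235 and 0.0118, and by 0.19 per total count, but Rpl29 was not called without the WT library of animal 3 (0.14) or the KO library of animal 2 (0.15). Of the counts of Rpl10 and its 6 named pseudogene copies, the copies took 45.7% in untreated WT and 45.3% in untreated KO cells. The 7 calls fell to 4 without the WT library of animal 2 or the KO library of animal 2 or 3, and to 3 without the WT library of animal 3.

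Paralogs moved with or apart from their partners. On the TMM scale Rpl22 was at 0.08 (not called) and Rpl22l1, its paralog under another symbol, at 0.23 in WT cells after LPS for 6 h, with -0.62 and -0.47 per total count, and in KO cells neither was called. Rpl7 changed by 0.28 in WT cells after LPS and by 0.13 in KO cells, and Rpl7l1 by 0.24 and 0.42 on the TMM scale, while per total count Rpl7 was at -0.42 and -0.06 and Rpl7l1 at -0.45 and 0.23. Rpl36a was at 0.05 (not called) and Rpl36al at 0.21 in WT cells after LPS on the TMM scale, and at -0.64 and -0.49 per total count. Rpl39 rose by 0.24 and Rpl10 by 0.28 on the TMM scale in the same comparison, both below 0 per total count, while neither was called in KO cells with either ligand. These differences between partners were not tested.

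Among genes with a role outside the ribosome, Rpl5 and Rpl11, which with 5S rRNA restrain MDM2, changed in WT cells after LPS for 6 h by 0.24 and 0.12 on the TMM scale but by -0.46 and -0.58 per total count, and after LTA by 0.31 and 0.11 on the TMM scale. Rps6, the substrate of the S6 kinases, changed by 0.10 (edgeR adjusted p = 0.0339) and 0.16 in WT cells and by 0.20 after LPS in KO cells on the TMM scale, with -0.59, -0.44 and 0.00 per total count. Rps3, which also takes part in NF-kB binding to DNA, changed by 0.26 and 0.28 in WT cells and by 0.16 and 0.15 in KO cells on the TMM scale, all 4 below 0 per total count. Rps27a, made as a fusion with ubiquitin, changed by 0.34 and 0.38 in WT and by 0.31 and 0.24 in KO cells, among the largest KO changes, with WT values of -0.35 and -0.22 and KO values of 0.12 and 0.06 per total count. Rpl36a was the other gene called lower in KO cells after LTA for 6 h, at -0.10 (adjusted p = 0.0440), and it was no longer called without any 1 of the 3 KO untreated libraries (-0.10, -0.11 and -0.09) or without the LTA library of animal 1 (-0.09) or 2 (-0.08), nor with the counts of its named pseudogenes added (-0.07). The testis paralog Rpl10l, at 0 to 5 counts a library, passed no call at 6 h.

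At 2 h the share of the pool was 8.49% ± 0.203 (SD, n = 3) after LPS and 8.21% ± 0.0710 after LTA in WT cells, and 8.53% ± 0.459 and 8.37% ± 0.0299 in KO cells. On the TMM scale, 42 genes were called higher and 26 lower in WT cells after LPS against untreated (19.5% and 25.5% of all genes), 35 and 25 after LTA (19.0% and 23.9%), 45 and 22 in KO cells after LPS (26.8% and 30.4%) and 41 and 26 after LTA (26.3% and 29.7%). Per total count the numbers were 42 and 26 (18.9% and 26.1%), 35 and 26 (19.0% and 23.9%), 36 and 29 (22.4% and 36.0%) and 37 and 30 (23.1% and 33.7%). Relative to the pool, a scale that by construction centres the genes on their own sum, 33 were higher and 32 lower (13.3% and 33.0%), 34 and 33 (14.8% and 28.1%), 33 and 33 (19.6% and 38.7%) and 33 and 34 (20.6% and 36.2%). These comparisons also set the shallow 2 h libraries against the deep ones, and the 2 cannot be told apart. The ratio of the pool to the TOP translation factors was 0.53 to 0.55 higher at 2 h in all 4 comparisons, and with genes weighted equally 0.18 to 0.24 higher. Within the pool, Rps6 differed by -1.85, -1.85, -1.75 and -1.76 in WT LPS, WT LTA, KO LPS and KO LTA, Rpl29 by -1.30, -1.31, -1.29 and -1.21, and Rps2 by about -0.9 in each. On the high side Rpl38 differed by 0.61, 0.68, 0.65 and 0.70 and Rpl11 by 0.61, 0.56, 0.64 and 0.59.

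The share of counts in copies of the genes elsewhere in the genome also differed at 2 h for some genes. The table held 245 genes named as pseudogenes of these genes, for 57 of the 80. Of the counts of Rps6 and its 4 named copies, the copies took 30.9% in untreated WT cells and 41.3% after LPS for 2 h. At 6 h after LPS the share was 30.8%, close to untreated cells. For Rpl29 and Rps2 the copies took no more than 0.14% in untreated cells and after LPS for 2 h. Other genes did not follow Rps6. Copies of Rpl36, higher within the pool by 0.32 in WT cells after LPS for 2 h, went from 15.7% to 26.4%. Copies of Rpl23a, lower by 0.47, went from 5.77% to 1.40%. Whether read assignment had a part in the 2 h values was not tested.

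Within the 2 h libraries the genotypes could be compared at like depth. After LPS 18 genes were called higher in KO cells (9.11% of all genes) and after LTA 24 (7.83%), both with a median of 0.10, and edgeR and DESeq2 called 0 lower in each (7.24% and 5.21% of all genes). Per total count the medians were 0.02 and 0.03, and 2 and 5 genes were called higher (6.04% and 5.53% of all genes), with 2 lower after LPS (9.82%) and, by edgeR and with 14 genes at an unadjusted p under 0.05, 0 lower after LTA (6.93%). Rpl24 was among the genes called higher in KO cells on the TMM scale, at 0.26 ± 0.0522 (edgeR adjusted p = 0.000173) after LPS. It measured 341.5, 322.9 and 323.9 CPM in WT and 407.4, 370.0 and 405.3 CPM in KO libraries. After LTA it differed by 0.30 ± 0.0530 (2.00e-05). Its sign at 2 h, KO above WT, was opposite to that at 6 h. DESeq2 called 8 and 9 in place of 18 and 24 (10.2% and 7.91% of all genes). Without the filter on low counts the 18 became 10 (3.91% of all genes). The count of 18 was 31 without the KO LPS library of animal 2, 10 without that of animal 1 or 3, 6 without the WT LPS library of animal 2 and 11 without that of animal 3. The count of 24 was 15 without the WT LTA library of animal 2, 12 without that of animal 3 and 14 without the KO LTA library of animal 3. The response itself, with the shared difference between library sets cancelled, was higher in KO cells for 6 genes after either ligand (10.0% and 9.02% of all genes), with 13 and 14 genes at an unadjusted p under 0.05 and edgeR calling 0 lower in each (7.90% and 6.33% of all genes), where DESeq2 called 0 and 1 lower and 2 and 3 higher. Per total count it was lower in KO cells for 7 genes after LPS and 2 after LTA (11.4% and 8.76% of all genes), and higher for 0 and 1 (7.04% and 6.63%). After LPS the 6 became 3 without the untreated library of WT animal 1 or of KO animal 1 or 3, the WT LPS library of animal 2 or the KO LPS library of animal 1. LPS and LTA differed at 2 h by 1 gene in WT cells, Rps12 at 0.15 (adjusted p = 0.0493; 1.10% and 0.0992% of all genes called higher and lower), and by 0 in KO cells with edgeR and with DESeq2 (1.14% and 0.258%), where 15 genes had an unadjusted p under 0.05 and 4 were called without the KO LPS library of animal 2. DESeq2 called another gene in WT cells, Rpl4 at 0.15, and not Rps12. The call of Rps12 was also lost with the animal as a block, per total count, with no filter on low counts, with unrounded counts and without the WT LPS library of animal 2 or 3 or any 1 of the 3 WT LTA libraries.

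Other genes of the translation machinery were read from fixed lists. A list of 9 genes for ribosomal proteins whose symbols lie outside the rule held Fau, Rack1 and Rps3a1, but also the assembly factor Rsl24d1. All 9 were called higher in WT cells after LPS (median 0.25) and after LTA (median 0.29) for 6 h on the TMM scale (36.6% and 35.4% of all genes). Per total count 8 and 9 were lower (63.7% and 62.3%). Rsl24d1, a factor that holds the place of Rpl24 on the maturing large subunit, measured 57.9, 64.2 and 65.8 CPM in untreated WT cells, 142.4, 155.1 and 160.9 CPM after LPS for 6 h, and 73.7, 76.4 and 74.8 CPM in KO cells after LPS. Its log2 change was 1.29 in WT cells, and KO minus WT after LPS was -1.03. Of the 18 TOP translation factors, 12 were higher and 2 lower in WT cells after LPS (median 0.18) on the TMM scale (36.6% and 36.1% of all genes) and 17 lower per total count (63.7%). Pabpc1, the poly(A)-binding protein, changed by 0.59 on the TMM scale but -0.10 per total count, and Eif4b by -0.75.

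Ribosome biogenesis factors, which process rRNA and assemble the subunits, gave a different count with each ligand and genotype. Of 41, 14 were higher and 21 lower in WT cells after LPS for 6 h (median -0.17) on the TMM scale (36.6% and 36.1% of all genes), 29 higher and 7 lower after LTA (median 0.29; 35.4% and 35.9%), 33 and 3 in KO cells after LPS (median 0.42; 25.7% and 26.6%) and 35 and 3 after LTA (median 0.45; 25.7% and 26.5%), whereas per total count the WT medians were -0.86 and -0.31, with 28 of 41 lower after LTA (62.3% of all genes), and the KO medians 0.22 and 0.27. In WT cells LPS was below LTA for 32 and above for 1 on the TMM scale (median -0.43; 14.0% and 17.9% of all genes). Dkc1, which modifies rRNA, changed by -1.70 in WT cells after LPS, and Rrs1 by 1.11. KO exceeded WT after LPS by 1.29 for Dkc1 and by 1.49 for Wdr12. Mitochondrial ribosomal protein genes had 15 higher and 41 lower of 78 in WT cells after LPS on the TMM scale (median -0.19; 36.6% and 36.1% of all genes) and 21 and 26 in KO cells (median -0.01; 25.7% and 26.6%). Per total count they had 2 higher and 73 lower in WT cells (16.2% and 63.7%) and 9 and 50 in KO cells (15.6% and 41.9%). On the TMM scale Mrps6 changed by -1.90 and Mrpl52 by 1.54 in WT cells.

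Of the growth regulators upstream, 10 of 18 tested were higher and 6 lower in WT cells after LPS on the TMM scale (36.6% and 36.1% of all genes), and 12 and 2 in KO cells (25.7% and 26.6%), whereas per total count 4 were higher and 11 lower in WT cells (16.2% and 63.7%) and 8 and 5 in KO cells (15.6% and 41.9%). Larp1, which binds TOP mRNAs, rose by 2.16 in WT cells and by 0.56 in KO cells after LPS for 6 h, and KO minus WT was -1.82. Myc, a transcription factor that drives ribosome production, fell by 0.94 after LPS and by 1.32 after LTA in WT cells and rose by 1.89 and 1.49 in KO cells. Ddit4, an inhibitor of mTORC1, rose by 3.61 in WT cells after LPS. Of 9 tested ribosome quality-control genes, 3 were higher and 3 lower in WT cells after LPS on the TMM scale, close to the 36.6% and 36.1% of all genes, and 1 and 7 per total count (16.2% and 63.7%), and Ascc3, which splits collided ribosomes, changed by 1.72.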

How the data were processed

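RNA of WT and KO macrophages was sequenced in 30 libraries, 3 per group, each replicate from 1 animal per the labels. The authors deposited a table of estimated counts per gene, of which 25.2% of values above 0, and 88.8% for the ribosomal protein genes, were not whole. Per the submitters' processing notes the tools were fastp 0.24.0, STAR 2.7.11, SAMtools 1.22.1 and featureCounts of Subread 2.1.1, with GRCm38 (mm10). No source used here gives their order, the strand setting, the annotation release or how multimapped reads were handled.

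The expected counts the authors deposited were rounded and fitted in 1 edgeR 4.0.16 quasi-likelihood model over all 10 groups (R 4.3.3, limma 3.58.1), with filterByExpr, TMM factors and Benjamini-Hochberg adjustment over 15119 genes at 0.05. Genes were named from GENCODE M21, which left 6047 of 32361 without a symbol, with 1.31 to 3.87% of counts. The common biological coefficient of variation was 0.0411. The fit was repeated per total count and with the ribosomal protein pool as library size. Library values were compared with exact two-sided permutation tests (scipy 1.17.1), also with numpy 2.4.6 and pandas 2.3.3. Between treated and untreated libraries these tests did not use the pairing by animal, and neither did the main edgeR fit. DESeq2 1.42.0, other factors and filters, a block for the animal and leaving out each library were alternatives.

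On simulated data made from WT, LPS 6 h against untreated (13318 genes), the fit called 26% of 100 genes changed 1.15-fold. It called 96% of 50 changed 1.5-fold, 100% of 50 changed 2-fold, and 6 of 13118 unchanged genes. In that set 13118 of the 13318 genes were unchanged. In the measured comparison 36.6% of all tested genes were called higher and 36.1% lower on the TMM scale. How often the fit calls unchanged genes when so many others change was not tested. The pairing comes from the labels: cells of 1 animal entered every group of its genotype. Libraries of the same animal did not deviate together, with a mean correlation of -0.0025 in WT and -0.013 in KO cells, and of 0.0015 and 0.0066 between different animals. Named genes were the 3 with the lowest and the 3 with the highest log2 change per 6 h or untreated comparison past the threshold, kept only where the sign matched that end, the 5 highest and 5 lowest levels, the paralog pairs, and Rplp0, Rplp1, Rplp2, Rpl5, Rpl11, Rps6, Rpsa, Rps3 and Rpl13a for their roles. Those at 2 h were named after their values were seen. A few genes are not reported here by name. The genes and lists were chosen with earlier results of these data known.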

Additional observations from a re-analysis of the deposited data

Results flagged for a closer look

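The responses of WT and KO cells differed, by the interaction term of the same fit over all genes, in 2 sets of ribosomal protein genes on the TMM scale. After LPS for 6 h, 28 genes had a lower response in KO cells (23.5% of all genes), among them Rpl24 at -0.63 and Rps24 at -0.31, while Rpsa had a higher one at 0.15, which was not called with DESeq2 (0.07). The 28 ran from 13 without the KO LPS library of animal 1 to 49 without the WT LPS library of animal 1. After LTA for 6 h, 50 genes had a lower response in KO cells (20.1% of all genes), among them Rpl24 at -0.70, Rplp2 at -0.33 and Rpl9 at -0.32. Per total count the direction turned, with 1 gene lower and 75 higher in KO cells after LPS and 1 lower and 73 higher after LTA. Rpl24 kept its sign on all 3 scales, at -0.13 and -0.29 per total count and at -0.52 and -0.53 within the pool.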

How the results depend on the processing

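Counting error and low library depth weigh more on the 2 h values than on the others, and 3 libraries per group cannot give an exact permutation p below 0.1. Many counts turned with the scaling, and the cause of the changes below was not tested. The counts that follow are of ribosomal protein genes called, higher unless said otherwise. The share of all genes called also moved with the setting and is not given beside each count. Per total count they were 1 and 1 in WT after LPS and LTA for 6 h, 4 and 2 in KO, 12 for untreated KO against WT, 0 and 1 lower for KO against WT after LPS and LTA for 6 h, 2 and 5 at 2 h, 1 and 0 for LPS against LTA in WT at 6 h and 2 h, 1 and 1 lower for the genotype difference at 6 h, and 0 and 1 at 2 h. On that scale Rpl29 turned to -0.111 and -0.0858 in WT, Rps24 to 0.22 for KO against WT after LPS, Rps13 and Rplp2 to 0.18 after LTA, and the differing responses of Rps24, Rplp2 and Rpl9 to 0.189, 0.0899 and 0.0981. With the pool as library size (chosen after seeing the data) they were 21, 20 and 16 in WT LPS, WT LTA and KO LPS at 6 h, 33 in KO LTA at 2 h, 3 for untreated KO against WT, 16 and 16 lower at 6 h, 3 and 3 at 2 h, 0 for LPS against LTA in WT at 2 h, and 8 and 4 lower for the genotype difference at 6 h. With the mitochondrial ribosomal proteins as library size (also added later) they were 37 in KO LTA at 6 h, 14, 59 and 68 lower, 8 and 4 for KO against WT in the same order, 4, 0 and 1 for LPS against LTA in WT at 6 h, WT at 2 h and KO at 2 h, 63 lower for the LPS 6 h genotype difference, and 3 and 2 at 2 h. DESeq2 gave 43 and 67 lower for KO against WT at 6 h, 8 and 9 at 2 h, 1 for LPS against LTA in KO at 6 h, 51 lower for the LPS 6 h genotype difference, and 2 and 3 at 2 h. Relative log expression factors gave 47 and 67 lower for KO against WT at 6 h, 8 and 10 at 2 h, 51 lower for the LPS 6 h genotype difference, 3 and 3 at 2 h, and 0 for LPS against LTA in WT at 2 h, which was also 0 with pseudogene counts added and with unrounded counts. Without the filter on low counts they were 13 and 23 lower for KO against WT at 6 h, 10 after LPS at 2 h, 3, 2, 0 and 1 for LPS against LTA in WT and KO at 6 h and WT and KO at 2 h, 11 and 23 lower for the genotype difference at 6 h, and 3 after LPS at 2 h. Fitting only the groups compared gave 30 in KO LTA at 6 h, 21, 6 and 12 for KO against WT untreated and at 2 h, 3 for LPS against LTA in WT at 6 h and 2 for the LPS 2 h genotype difference.

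With the animal as a replicate block, the count for LPS against LTA was 1 in KO cells at 6 h, in place of 0, and 0 in WT cells at 2 h, in place of 1. The block changed no other count by over 1.5 times and, apart from Rps12, no named gene's call, and KO against WT could not be blocked, since each animal has 1 genotype. Over protein-coding genes the log2 share was 0.19, 0.17 and 0.11 at 2 h in WT LPS, WT LTA and KO LTA, and -0.0016 and -0.0655 for KO against WT and the genotype difference after LTA at 2 h. Without mitochondrial genes it was 0.144, 0.0896 and 0.0087 for WT LTA, KO LTA and KO against WT after LTA at 2 h, and with copies added 0.14 and 0.10 for WT LTA and KO LTA at 2 h. With genes weighted equally, the small to large ratio was -0.0305, -0.0664, -0.0044 and -0.0286 in the 4 responses at 6 h and -0.0308 and -0.0047 for KO against WT untreated and after LPS, the ratio to mitochondrial ribosomal proteins 0.47, 0.48, 0.12 and 0.11, with -0.29 and -0.31 for KO against WT and -0.35 and -0.37 for the genotype difference, and the ratio to translation factors 0.0586 and 0.0165 in WT and -0.059 and -0.0255 for KO against WT, with 0.24, 0.23, 0.18 and 0.20 in WT LPS, WT LTA, KO LPS and KO LTA at 2 h. Leaving out 1 library gave 24 to 57 in KO LPS at 6 h, 3 to 5 for untreated KO against WT, 16 to 46 and 33 to 64 lower at 6 h, 6 to 31 and 12 to 18 at 2 h, 2 to 6 and 0 to 28 for LPS against LTA at 6 h in WT and KO, 0 to 1 and 0 to 4 at 2 h, 13 to 49 lower for the LPS 6 h genotype difference and 3 to 8 at 2 h. No share or ratio moved by more than the spread between libraries when 1 library was left out. An alternative restricted to genes with whole deposited values was not run, since Rpl3l alone qualified.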
